A study of Arabidopsis thaliana with 14 samples.

Results

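Seedlings of the Arabidopsis wild type Col-0 and of ibm1-1 were raised for 7 days on sterile plates of solid half-strength Murashige and Skoog medium, and mRNA was sequenced from full plants. The comparison was chosen as the 4 libraries of this experiment, 2 biological replicates of each genotype, among the 14 samples of the series. All genes that passed a filter on low counts enter it, which left 20871 of the 33602 genes listed, including 1171 that the counts of soil-grown plants do not list. Both genotypes had the regular treatment of the labels and differ by the ibm1-1 mutation, a point mutation in the gene IBM1. Neither was transferred to soil. No label says from how many plates or seedlings a replicate came, so p-values measure the spread between these libraries.

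IBM1 is a histone demethylase that removes methyl groups from histone H3 lysine 9 in the bodies of transcribed genes, and loss of it is known to let this mark and non-CG DNA methylation spread into genes. Plants answer pathogens through receptors at the cell surface and inside the cell and through the hormones salicylic acid (SA) and jasmonate, and on a sterile plate these defence genes are normally at a low level. The comparison asks which genes differ between the genotypes when no microbes are present.

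Each library held between 18260809 and 21411230 counts, and the scaling factors were between 0.989 and 1.02. Normalized counts below are counts divided by the scaled size of the library and multiplied by the mean of these sizes. The replicates of a genotype correlated at 0.987 in Col-0 and 0.989 in ibm1-1 on the log2 scale, and libraries of different genotypes at 0.942 or more. The mutated gene, IBM1 (AT3G07610, on chromosome 3 from 2425884 to 2433113 in TAIR10.1 coordinates), gave 493 and 536 normalized counts in Col-0 and 339 and 339 in ibm1-1. Both ibm1-1 libraries were below both of Col-0 (log2 fold change -0.60, SE 0.119, adjusted p = 0.00722), by less than a fold change of 2. This checks the labels in part only, since such a mutation can leave the transcript level as it is. The strand setting of the counting is not given in the sources used here, so the 277 of the 1473 called genes that have an annotated gene on the opposite strand are uncertain. Genes named with values that have such a neighbour, called or not, are SARD1, NPR1, CRK10, FRK1, EFR, FLS2, RLP23, RLP40, RPS2, WRKY33, CYP71A13, EARLI1, AT4G12490, DIR1, MYC2, TT4, PAP17, FER1, SYP111, CASP5, SUVH4, FLC, MRD1, AT1G23110, AT3G10185, AT3G13610, AT2G47880 and AT2G30766.

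More genes were higher than lower in ibm1-1. Of the 20871 genes, 1154 were higher in ibm1-1 (5.53%) and 319 were lower (1.53%). These 2 shares are the background of every count of called genes below. A gene was called when it differed by more than 2-fold with an adjusted p under 0.05, taken from edgeR (quasi-likelihood test, Benjamini-Hochberg adjusted over the 20871 genes), and every adjusted p below comes from this fit. By the adjusted p alone, at any fold change, 11.5% of all genes were higher and 7.77% lower. The higher genes also reached further, with 260 above a log2 fold change of 3 against 10 lower genes below -3. The median over all genes tested was -0.01. The replicates did not overlap for 1472 of the 1473 called genes, beside 30.8% of all genes with both ibm1-1 libraries above and 31% with both below. The exception was LTP4, a lipid transfer protein gene, with 14.9 and 1.8 normalized counts in Col-0 and 173 and 13.1 in ibm1-1. The calls were made on these same counts, so the separation of the other called genes largely follows from the call and adds no support. With 2 libraries against 2, an exact permutation test of a single gene cannot go below a p of 1 in 3, so each call rests on the spread that edgeR shares between genes.

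Promoter stretches of 5 higher genes are shown first, because they carry the short motifs that defence and nutrient factors are known to bind. Each is the 250 bases before the annotated start of the gene in the RefSeq annotation of TAIR10.1, written 5′ to 3′ on the strand of the gene, with the matches of 1 chosen motif, on either strand, in capitals. The W-box, TTGACC or TTGACT, is bound by WRKY factors. TGACG is bound by TGA factors, which act with the SA receptor NPR1, and GCCGCC by ethylene response factors. GNATATNC is the P1BS element, bound by the phosphate starvation factor PHR1. The P1BS search was added after the values had been seen. For CRK5, a cysteine-rich receptor kinase (chr4:12120221-12120470, minus strand), the capitals mark 3 W-boxes, of which the first 2 lie end to end. For PCC1, a pathogen and circadian controlled gene (chr3:7846834-7847083, minus strand), they mark 3 TGACG motifs. PDF1.2, a defensin (chr5:17907639-17907888, minus strand), holds 1 GCCGCC. PS2, a phosphatase gene (chr1:27466349-27466598, minus strand), holds 1 P1BS element and SPX3, a phosphate sensor (chr2:18606160-18606409, plus strand), holds 2. In lower case, the window of PS2 also holds 1 W-box, 1 TGACG and 1 CGCGT, and that of SPX3 holds 1 TGACG, while the other 3 windows hold no further match of the motifs searched.
CRK5: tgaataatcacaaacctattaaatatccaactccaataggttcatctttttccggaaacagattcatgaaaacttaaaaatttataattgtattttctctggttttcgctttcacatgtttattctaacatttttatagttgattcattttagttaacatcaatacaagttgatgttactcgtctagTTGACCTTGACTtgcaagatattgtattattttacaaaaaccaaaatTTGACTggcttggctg
PCC1: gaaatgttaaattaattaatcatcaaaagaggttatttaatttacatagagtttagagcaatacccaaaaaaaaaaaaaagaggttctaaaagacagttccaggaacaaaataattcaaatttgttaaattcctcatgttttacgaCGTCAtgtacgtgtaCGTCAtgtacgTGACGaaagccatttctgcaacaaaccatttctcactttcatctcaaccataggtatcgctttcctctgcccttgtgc
PDF1.2: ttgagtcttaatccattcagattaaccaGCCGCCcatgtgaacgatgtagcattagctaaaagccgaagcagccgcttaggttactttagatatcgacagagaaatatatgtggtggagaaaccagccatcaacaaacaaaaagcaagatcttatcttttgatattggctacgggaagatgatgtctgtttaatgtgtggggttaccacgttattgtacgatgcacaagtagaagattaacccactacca
PS2: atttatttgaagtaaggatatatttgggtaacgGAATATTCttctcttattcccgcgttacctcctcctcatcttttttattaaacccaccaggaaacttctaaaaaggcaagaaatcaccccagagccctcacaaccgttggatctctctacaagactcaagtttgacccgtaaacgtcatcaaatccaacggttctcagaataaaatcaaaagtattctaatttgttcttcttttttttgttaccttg
SPX3: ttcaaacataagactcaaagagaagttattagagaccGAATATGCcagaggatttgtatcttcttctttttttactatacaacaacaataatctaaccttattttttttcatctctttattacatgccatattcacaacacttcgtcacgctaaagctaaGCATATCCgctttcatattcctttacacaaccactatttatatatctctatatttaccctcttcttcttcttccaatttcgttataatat

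Over all higher genes, 419 of 1095 windows held a W-box (38.3%), beside 29.9% of the windows of lower genes and 28.4% of all 27443 protein-coding windows. Among the cysteine-rich receptor kinases it was 24 of 38 (63.2%), whether or not the gene was called. TGACG was in 8 of 19 windows of the SA response genes (42.1%), in 23.7% of the higher genes and in 18.6% of all windows. The W-box was in 4 of 19 SA response windows (21.1%), below its share of all windows, and the window of PR1 held none of the motifs searched. Among camalexin genes the W-box was in 4 of 9 windows and TGACG in 1 of 9 (11.1%). GCCGCC was in 3 of 8 windows of the ERF branch of jasmonate defence, in 3.38% of higher genes and 1.87% of all. P1BS was in 2 of 9 windows of the phosphate starvation list and in 5.46% of all. The G-box CACGTG was in 5.94% of the windows of higher genes and 6.49% of all. The motif of the factors CBP60g and SARD1, searched as GAAATTT, was in 12.6% and 12.5%. The sequence CGCGT, bound by calmodulin-binding factors, was in 8.58% and 6.87%. The motifs may overlap, and a window counted once for each motif that it held, although no single TGAC can belong to a W-box and a TGACG on the same strand. A match in these windows is a description of the letters and does not show binding.

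Most genes that respond to SA were higher in ibm1-1. Of 19 tested, 15 were called higher against 5.53% of all genes, and none lower. Their median log2 fold change was 2.95. PR1, a pathogenesis-related protein used as the marker of SA defence (AT2G14610, chromosome 2 from 6241640 to 6242541), had 0.995 and 1.8 normalized counts in Col-0 and 811 and 702 in ibm1-1. The Col-0 libraries held 3 reads in all, and both ibm1-1 libraries stood far above them. The ratio was 535, with a 95% counting interval of 183 to 2598. LURP1, needed for resistance to downy mildew, had 7.96 and 1.8 normalized counts in Col-0 and 1764 and 1179 in ibm1-1 (log2 fold change 8.24, SE 0.358, adjusted p = 2.36e-06). The glucanase gene PR2, listed as BGL2, had 1.99 and 3.59 normalized counts in Col-0 and 191 and 266 in ibm1-1 (log2 fold change 6.27, SE 0.361, adjusted p = 8.11e-06), and PR5, a thaumatin-like protein, had 105 and 96.1 in Col-0 and 454 and 464 in ibm1-1 (log2 fold change 2.19, SE 0.143, adjusted p = 1.52e-05). All of these separated the genotypes without overlap. AIG1, a gene first found by its response to a bacterial effector, had 0.995 and 5.39 normalized counts in Col-0 and 214 and 292 in ibm1-1, and PNP-A, a secreted natriuretic peptide, had 2.98 and 1.8 in Col-0 and 109.9 and 110.1 in ibm1-1. PCC1 was higher with 1.99 and 1.8 normalized counts in Col-0 and 459 and 159 in ibm1-1, so the ibm1-1 libraries also differed from each other. ACD6, an ankyrin-repeat regulator of SA defence, was already at 707 and 403 in Col-0 and reached 2989 and 2082 in ibm1-1 (log2 fold change 2.19, SE 0.249, adjusted p = 0.000354). The 4 members not called were GRXS13, TRX5, GRX480 and WRKY38, with log2 fold changes of -0.12, -0.07, 0.74 and 1.31.

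**Figure D1:**
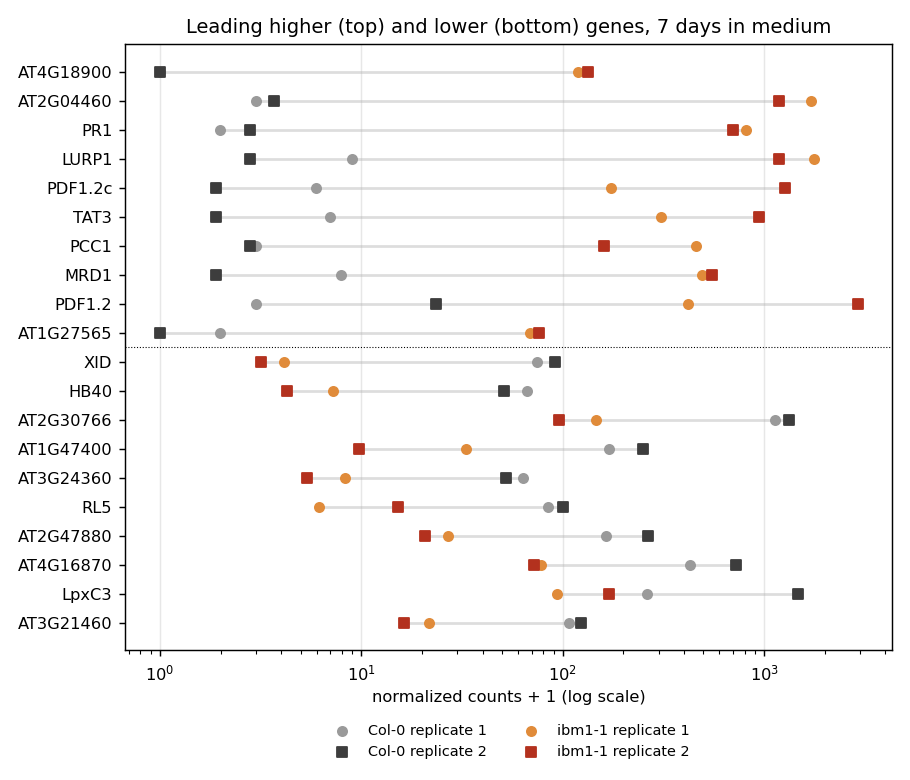
Normalized counts plus 1 (log scale) in each of the 4 libraries (circles replicate 1, squares replicate 2, grey Col-0, coloured ibm1-1) for the 10 most raised and the 10 most reduced genes that were called, did not overlap between genotypes and had at least 50 normalized counts in each library of the higher genotype. PR1 lies below 2 in both Col-0 libraries and at 811 and 702 in ibm1-1, while PDF1.2 is also spread within ibm1-1, at 417 and 2910.

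Fewer of the genes that make and control SA were called. Of 17 tested, 4 were higher, 5 more passed the adjusted p below the fold change of 2, and none was lower (median 0.71). At any fold change 9 of the 17 were higher by the adjusted p, beside 11.5% of all genes. The master regulators SARD1 and CBP60G had 23.9 and 22.5 normalized counts in Col-0 and 185 and 183 in ibm1-1, and 43.8 and 48.5 in Col-0 and 181 and 185 in ibm1-1, with log2 fold changes of 2.98 (adjusted p = 2.34e-05) and 1.99 (adjusted p = 0.000134). PBS3, which acts in the last steps of SA synthesis, had 10.9 and 16.2 normalized counts in Col-0 and 92.3 and 102 in ibm1-1 (log2 fold change 2.82, SE 0.297, adjusted p = 0.000235). ICS1, which makes the SA precursor and is listed as EDS16, had 85.5 and 102 normalized counts in Col-0 and 158 and 205 in ibm1-1 (log2 fold change 0.94, SE 0.195, adjusted p = 0.00903), just under the fold threshold. The lipase-like regulator SAG101 was just above it at 1.02 (adjusted p = 0.000543), and was under it with scaling by library size alone. Its partner PAD4 had 0.73 (adjusted p = 0.00401), and EDS1 had 0.14 (adjusted p = 0.482). The SA receptor NPR1 had 634 and 765 normalized counts in Col-0 and 719 and 749 in ibm1-1, without a called difference. In the pathway of N-hydroxypipecolic acid, a mobile signal of systemic resistance, the producing enzyme FMO1 was higher (1.99 and 1.8 normalized counts in Col-0 and 42.5 and 113 in ibm1-1), and so was UGT76B1, which attaches glucose to the product (log2 fold change 1.27, SE 0.137, adjusted p = 0.000269).

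Families of receptors at the cell surface held many higher genes. Of 37 cysteine-rich receptor-like kinases tested, 19 were higher, none was lower, and both ibm1-1 libraries were above both Col-0 libraries for 34, as for 30.8% of all genes (median 1.29). CRK5 had 2.98 and 2.7 normalized counts in Col-0 and 139 and 113 in ibm1-1 (log2 fold change 5.42, SE 0.363, adjusted p = 1.77e-05) and CRK6 had 4.97 and 1.8 in Col-0 and 81.9 and 77.4 in ibm1-1. CRK7 had 0 and 0.898 in Col-0 and 62.2 and 42.5 in ibm1-1, a ratio of 111, with a 95% counting interval of 19.5 to 4447. CRK38 had no count in Col-0 and 13.5 and 17.4 normalized counts in ibm1-1, at least 10.9-fold higher against a floor of 3 counts over both Col-0 libraries, and the family median is unaffected by holding it at this bound. Members with a high level in Col-0 differed less: CRK10 had 1569.6 and 854 normalized counts in Col-0 and 1272 and 755 in ibm1-1, with overlap, and CRK18 had 681 and 757 in Col-0 and 1206 and 1069.7 in ibm1-1 (log2 fold change 0.66, SE 0.116, adjusted p = 0.00415). The 13 runs of at least 3 neighbouring protein-coding genes called in the same direction were all of higher genes, 46 genes in all, and 4 of these runs were of this family on chromosome 4. They were CRK36 to CRK39 (from 2231717 to 2262320), CRK5 to CRK8 with the neighbouring gene EP1 (from 12117491 to 12136796), CRK12 to CRK15 (from 12145035 to 12160279) and CRK20 to CRK24 (from 12174733 to 12191704). Neighbouring members are similar in sequence, so reads of short shared stretches could be counted for the wrong copy. Lower genes were fewer (319 against 1154), so runs of them were less likely beforehand, and no expected number of runs was worked out.

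**Figure D2:**
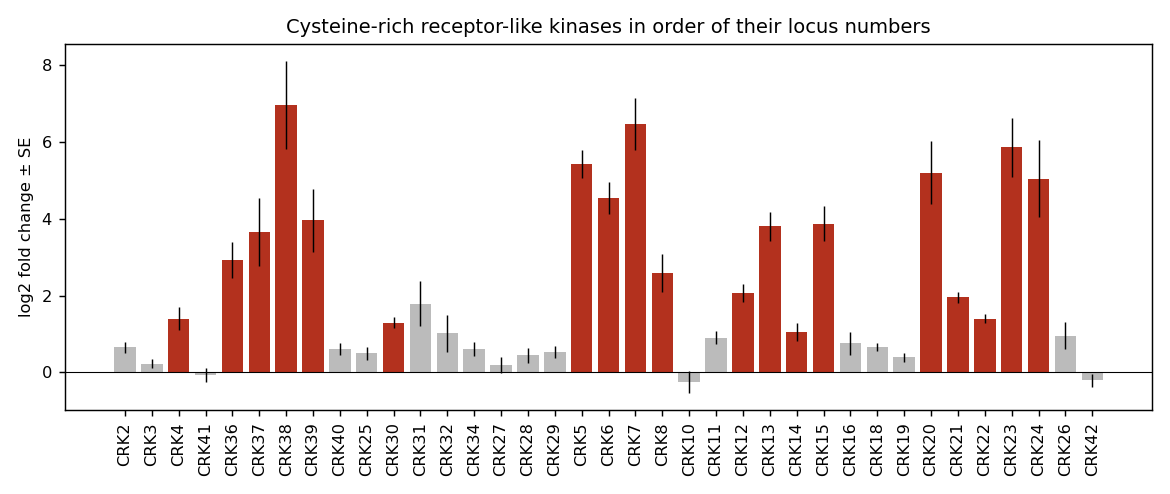
Log2 fold change of ibm1-1 against Col-0, with its standard error, of the 37 cysteine-rich receptor-like kinases tested, in the order of their locus numbers, with called genes in red and the others in grey. The red bars stand in groups of neighbours, such as CRK36 to CRK39 and CRK5 to CRK8, and bars of genes with 3 or fewer counts in Col-0, such as CRK7 and CRK38, depend on the prior count of the fit.

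The receptor-like proteins, which lack a kinase domain, had 21 higher and no lower genes of 46 tested, beside 5.53% and 1.53% of all genes (median 0.97). RLP23, which senses a peptide shared by microbes of several kingdoms, had 11.9 and 6.29 normalized counts in Col-0 and 218 and 238 in ibm1-1 (log2 fold change 4.64, SE 0.272, adjusted p = 8.87e-06). RLP21 and RLP40 had log2 fold changes of 4.73 (adjusted p = 0.000186) and 4.33 (adjusted p = 2.57e-05). Of 13 wall-associated kinases, 8 were higher and none lower, although 5 were called without replicate 1 of Col-0 and 4 without replicate 1 of ibm1-1, with WAK1 at 648 and 549 normalized counts in Col-0 and 3007 and 2631 in ibm1-1 (log2 fold change 2.24, SE 0.132, adjusted p = 9.24e-06). Among 15 receptors of the NLR class inside the cell, 3 were higher, beside the same 5.53%: ADR1, a helper of other receptors (log2 fold change 1.24, SE 0.135, adjusted p = 0.000284), RPS2 (log2 fold change 1.19, SE 0.167, adjusted p = 0.00118) and RMG1 (AT4G11170), with 0 and 2.7 in Col-0 and 28.0 and 25.1 in ibm1-1. SNC1, whose activation causes autoimmunity in other mutants, had 3550.1 and 4514 normalized counts in Col-0 and 4236 and 3780.3 in ibm1-1, with overlap.

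In pattern-triggered immunity, the first answer to microbial molecules, 4 of 19 genes were higher, beside 5.53% of all genes. The median was 0.52, and 5 more passed the adjusted p alone. At any fold change 9 of the 19 were higher by the adjusted p, beside 11.5% of all genes. FRK1, a receptor kinase induced by bacterial flagellin, had 10.9 and 7.19 normalized counts in Col-0 and 189.8 and 189.7 in ibm1-1 (log2 fold change 4.38, SE 0.263, adjusted p = 1.02e-05). EFR, the receptor of a bacterial elongation factor, had 86.5 and 96.1 in Col-0 and 239.5 and 216 in ibm1-1 (log2 fold change 1.32, SE 0.165, adjusted p = 0.000625), while FLS2, the flagellin receptor, had 439 and 600.1 in Col-0 and 669 and 553 in ibm1-1, with overlap. RBOHD, the oxidase of the oxidative burst, had a log2 fold change of 0.94 (adjusted p = 0.00171), just under the fold threshold. Of 56 WRKY transcription factor genes 16 were higher and none lower (median 0.35), beside 5.53% and 1.53% of all genes. The lists and families share members, so their counts are not separate. For example, WRKY54, WRKY62 and WRKY70 also count in the SA response list, and WRKY33 and GSTF6 in that of camalexin. RLP23 counts both in pattern-triggered immunity and among the receptor-like proteins. WRKY46 had 14.9 and 13.5 normalized counts in Col-0 and 114 and 131 in ibm1-1 (log2 fold change 3.10, SE 0.265, adjusted p = 7.11e-05), WRKY70 had 78.6 and 88.0 in Col-0 and 365 and 346 in ibm1-1 (log2 fold change 2.09, SE 0.154, adjusted p = 2.79e-05), and WRKY33, the activator of camalexin synthesis, had 225 and 238 in Col-0 and 582 and 723 in ibm1-1 (log2 fold change 1.49, SE 0.141, adjusted p = 0.000134).

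**Figure D3:**
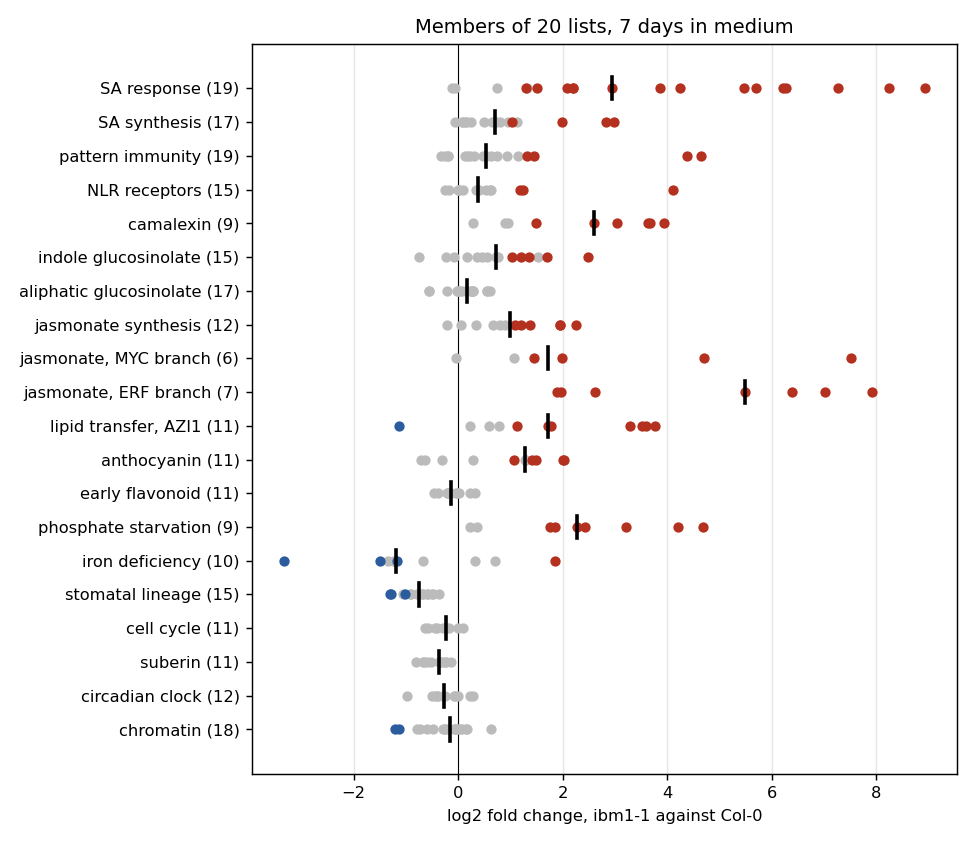
Log2 fold change of every tested member of 20 gene lists, ibm1-1 against Col-0, with the number tested after each name, where red points are called higher, blue points called lower and grey points not called, and the black bar is the median of the list. The SA response list has 15 red points of 19, whereas the 15 stomatal lineage genes all lie below 0.

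Higher genes were found in the synthesis of camalexin and of indole glucosinolates, and no called gene in that of aliphatic glucosinolates. Camalexin, an indole phytoalexin, had 6 higher genes of 9 (median 2.60), beside 5.53% of all genes. With the robust estimate of the spread described below, 4 were higher. For 8 of the 9 replicate 1 of Col-0 was above replicate 2, with a median ratio of 1.57. CYP71A12 had 29.8 and 18.0 normalized counts in Col-0 and 374 and 359 in ibm1-1 (log2 fold change 3.95, SE 0.219, adjusted p = 7.64e-06), and GSTF6, a glutathione transferase, had 1046 and 593 in Col-0 and 9078 and 11213 in ibm1-1 (log2 fold change 3.63, SE 0.247, adjusted p = 1.88e-05). PAD3, the enzyme of the last step, had 259 and 88.9 in Col-0 and 805 and 1289 in ibm1-1 (log2 fold change 2.60, SE 0.38, adjusted p = 0.0015). Its Col-0 libraries differed from each other, and it was not called with the robust spread (adjusted p = 0.159). CYP71A12 and CYP71A13, and GSTF6 and GSTF7, are near-identical pairs whose reads may be split. Of 15 indole glucosinolate genes 5 were higher, beside the same 5.53%. These were the regulator MYB51 (log2 fold change 1.71, SE 0.162, adjusted p = 0.000137), CYP83B1 (log2 fold change 1.35, SE 0.128, adjusted p = 0.000139), CYP81F2, which modifies the indole ring (log2 fold change 2.47, SE 0.253, adjusted p = 0.000206), and the methyltransferases IGMT1 and IGMT2, with log2 fold changes of 1.03 and 1.20. A related regulator, MYB34, went the other way, with 858 and 823 normalized counts in Col-0 and 494 and 503 in ibm1-1 (log2 fold change -0.75, adjusted p = 0.00131, under the fold threshold). None of 17 aliphatic glucosinolate genes was called, and their median was 0.17.

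Lipid transfer proteins of the AZI1 group, which help systemic resistance, were among the most abundant raised genes. AZI1 had 578 and 544 normalized counts in Col-0 and 6666 and 8528 in ibm1-1 (log2 fold change 3.76, SE 0.154, adjusted p = 1.73e-06), its neighbour EARLI1 had 1771 and 1578 in Col-0 and 15355 and 17145 in ibm1-1 (log2 fold change 3.28, SE 0.136, adjusted p = 1.73e-06), and AT4G12490 of the same group had 203 and 217 in Col-0 and 2427 and 2632 in ibm1-1 (log2 fold change 3.59, SE 0.125, adjusted p = 9.8e-07). In this list 7 of 11 were higher and 1 was lower. DIR1, which carries a signal of systemic resistance, was the lower member, with 722 and 906 normalized counts in Col-0 and 279 and 466 in ibm1-1 (log2 fold change -1.13, SE 0.211, adjusted p = 0.0055), and lost its call without replicate 2 of Col-0 or replicate 1 of ibm1-1. Of the 12 phi-class glutathione transferases, detoxifying enzymes, 7 were higher (median 1.42), and GSTF7 had 412 and 350.4 in Col-0 and 4775 and 5733 in ibm1-1 (log2 fold change 3.79, SE 0.15, adjusted p = 1.72e-06).

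Most tested genes of both jasmonate branches were raised, with a wide spread within genotypes. All 7 tested genes of the ERF branch, which acts with ethylene against necrotrophs, were higher (median 5.49). The factor ORA59 had 60.7 and 65.6 normalized counts in Col-0 and 232 and 234 in ibm1-1 (log2 fold change 1.88, SE 0.168, adjusted p = 9.18e-05), and PR4, a hevein-like protein, had 1356 and 1625 in Col-0 and 7710.5 and 10603 in ibm1-1 (log2 fold change 2.62, SE 0.173, adjusted p = 1.65e-05). PDF1.2 had 1.99 and 22.5 normalized counts in Col-0 and 417 and 2910.2 in ibm1-1 (log2 fold change 7.02, SE 1.02, adjusted p = 0.00146), and its close copies PDF1.2b, PDF1.2c and PDF1.3, whose reads may be split, had log2 fold changes of 5.49, 7.93 and 6.39. Replicate 2 of ibm1-1 was above replicate 1 for all 7 genes, with a median ratio of 0.188 of replicate 1 to replicate 2. With a robust estimate of the spread, which gives genes of unusual spread less weight in the shared estimate and was added after the data were seen, none of the 4 defensins passed the adjusted p (0.183 for PDF1.2), and 3 genes of the branch were called higher.

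In the MYC branch, linked to wounding and insects, 4 of 6 genes were higher, and 2 with the robust spread. TAT3, a tyrosine aminotransferase, had 5.97 and 0.898 normalized counts in Col-0 and 306 and 945 in ibm1-1 (log2 fold change 7.51, SE 0.749, adjusted p = 0.00018, adjusted p = 0.0936 with the robust spread), and JAL23, a lectin, had 13.9 and 4.49 in Col-0 and 248 and 227 in ibm1-1 (log2 fold change 4.70, SE 0.319, adjusted p = 1.88e-05). Of 12 genes of jasmonate synthesis and turnover 6 were higher and none lower (median 0.99). LOX2, the first enzyme of the pathway in chloroplasts, had 8309.8 and 2957 normalized counts in Col-0 and 20200.0 and 23196 in ibm1-1 (log2 fold change 1.95, SE 0.367, adjusted p = 0.00582, adjusted p = 0.211 with the robust spread), and AOC1 had 378 and 243 in Col-0 and 904 and 1496 in ibm1-1 (log2 fold change 1.95, SE 0.251, adjusted p = 0.000713). For 11 of these 12 genes replicate 1 of Col-0 was above replicate 2. Without replicate 1 of Col-0 the count was 8 and without replicate 2 it was 4. MYC2, the master factor, had 797 and 712 normalized counts in Col-0 and 650.1 and 809 in ibm1-1, with overlap. Of 8 genes of the JAZ repressors of jasmonate signalling, only JAZ5 was higher, beside 5.53% of all genes, and none was lower. Another 2 passed the adjusted p alone, and the median of this family was 0.45. At any fold change 3 of the 8 were higher by the adjusted p, beside 11.5% of all genes.

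Anthocyanin pigment genes had the same split within Col-0. Of 11 tested, 5 were higher (median 1.27), and 10 were higher in replicate 1 than in replicate 2 of Col-0, by a median ratio of 2.99. DFR and LDOX, enzymes of the late steps, had 637 and 173 normalized counts in Col-0 and 1731 and 1517 in ibm1-1, and 701 and 200.3 in Col-0 and 1822 and 1809 in ibm1-1. Their log2 fold changes were 2.01 (adjusted p = 0.00937) and 2.02 (adjusted p = 0.00801), and the adjusted p was 0.269 and 0.256 with the robust spread. The count was 8 without replicate 1 of Col-0, 2 without replicate 2 and 2 with the robust spread. The 11 early flavonoid genes, which feed this branch, had no called gene in either direction (median -0.13). TT4, the chalcone synthase, had 22269 and 16989.7 normalized counts in Col-0 and 20164 and 14141 in ibm1-1, with overlap.

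Phosphate starvation genes were higher in ibm1-1, with close replicates. These genes are known to respond when phosphate runs short, by releasing, taking up and saving it. Of 9 genes 7 were higher, none was lower, and both ibm1-1 libraries were above both Col-0 libraries for all 9 (median 2.27). PS2 (AT1G73010, chromosome 1 from 27464528 to 27466348) had 21.9 and 27.0 normalized counts in Col-0 and 488 and 419.8 in ibm1-1 (log2 fold change 4.20, SE 0.193, adjusted p = 3.62e-06). The acid phosphatase PAP17 had 242 and 283 in Col-0 and 1288 and 1239.7 in ibm1-1 (log2 fold change 2.27, SE 0.123, adjusted p = 6.44e-06). The transporter PHT1;4 had 194 and 221 in Col-0 and 745 and 654 in ibm1-1 (log2 fold change 1.75, SE 0.133, adjusted p = 3.31e-05), whereas PHT1;1 had 1333 and 1195 in Col-0 and 1699 and 1536 in ibm1-1 (log2 fold change 0.36, SE 0.116, adjusted p = 0.0585). SPX1, a sensor of phosphate, had 208 and 305 normalized counts in Col-0 and 968 and 884 in ibm1-1 (log2 fold change 1.85, SE 0.168, adjusted p = 0.000101), and its relative SPX3 had 5.97 and 3.59 in Col-0 and 25.9 and 26.2 in ibm1-1 (log2 fold change 2.43, SE 0.472, adjusted p = 0.00671). IPS1, a non-coding RNA that sequesters a microRNA of this pathway, had 1.99 and 0.898 in Col-0 and 45.6 and 33.8 in ibm1-1, a ratio of 28.1, with a 95% counting interval of 9.27 to 139.6. MGDC, the gene of the galactolipid synthase MGD3 that replaces phospholipids, had 6.96 and 13.5 in Col-0 and 84.0 and 110.1 in ibm1-1 (log2 fold change 3.21, SE 0.351, adjusted p = 0.000284), while SQD2, which makes sulfolipids, had 0.23 (adjusted p = 0.182). In soil the median of the list was 0.07, over the 7 members tested there. Age, substrate and read processing also differ between the experiments.

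Of 10 iron deficiency genes tested 3 were lower, beside 1.53% of all genes, and 1 was higher (median -1.20). AT3G13610 was also above Col-0 by the adjusted p alone (log2 fold change 0.70, adjusted p = 0.0147), under the fold threshold. IRT1, the iron transporter of the root surface, had 181 and 92.5 normalized counts in Col-0 and 63.3 and 32.7 in ibm1-1 (log2 fold change -1.50, SE 0.368, adjusted p = 0.0199), and NAS4, which makes the iron carrier nicotianamine, had 599 and 487 in Col-0 and 282 and 202 in ibm1-1 (log2 fold change -1.16, SE 0.175, adjusted p = 0.00175). AT1G47400, the third lower gene of this list, had 169 and 248 in Col-0 and 32.1 and 8.72 in ibm1-1 (log2 fold change -3.33, SE 0.39, adjusted p = 0.000428). FER1, the ferritin gene that is induced when iron is ample, had 2313 and 2769 normalized counts in Col-0 and 9856 and 8468 in ibm1-1 (log2 fold change 1.85, SE 0.139, adjusted p = 3.14e-05). FRO2, the iron reductase, had 67.6 and 33.2 in Col-0 and 25.9 and 16.4 in ibm1-1 (adjusted p = 0.0663), and the factor bHLH39 had 84.5 and 85.3 in Col-0 and 52.9 and 13.1 in ibm1-1 (adjusted p = 0.0593), so neither was called. Replicate 2 of ibm1-1 was below replicate 1 for all 10 genes, with a median ratio of 2.21 between them. Without replicate 1 of ibm1-1 the lower count was 7, and without replicate 2 it was 2. IRT1 was not called without replicate 1 of Col-0. In soil IRT1 and AT1G47400 had log2 fold changes of 1.61 and 1.73, on the other side of 0. The list had a median of 0.78 there, over the 6 members tested in soil. Age, substrate and read processing also differ between the experiments.

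**Figure D4:**
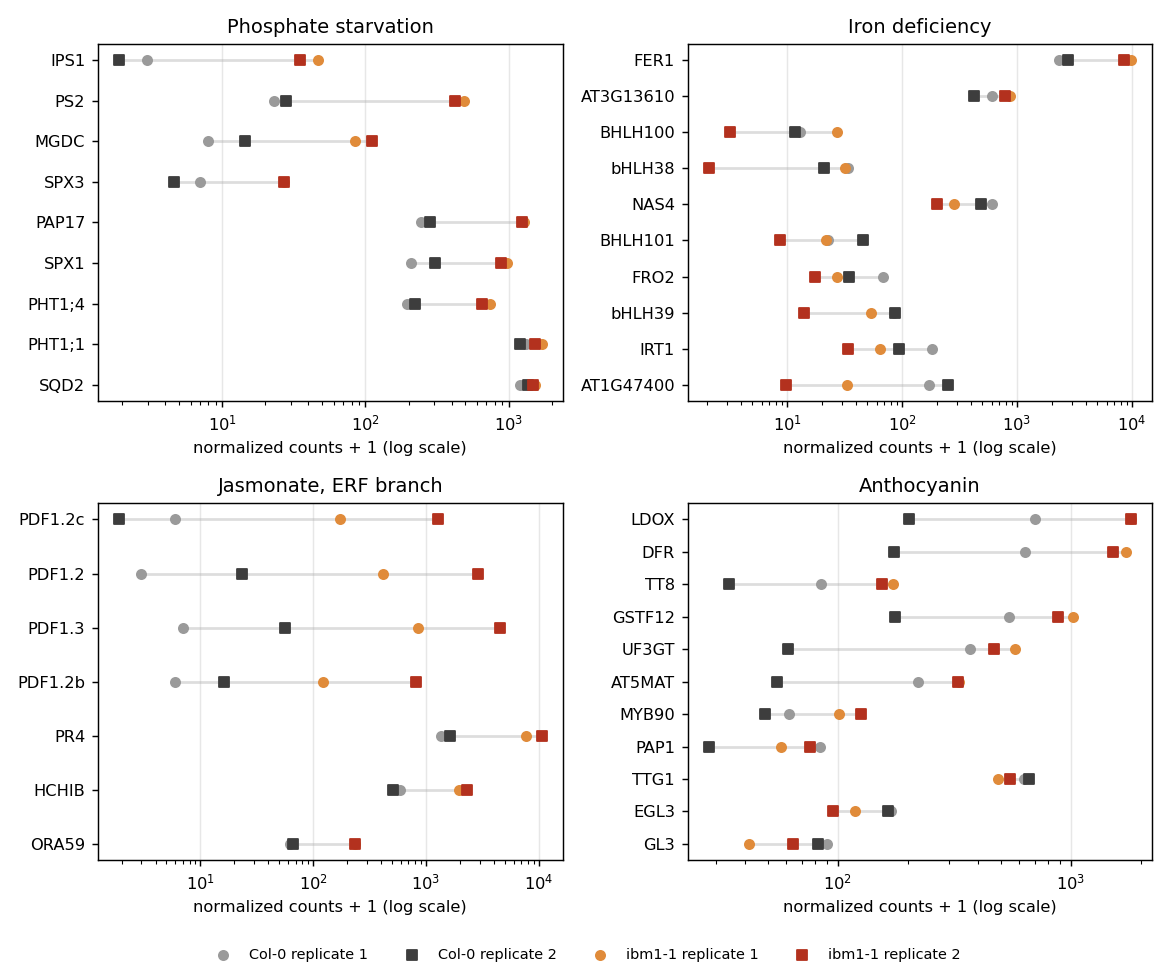
Normalized counts plus 1 (log scale) of all tested members of 4 lists in the 4 libraries, with circles for replicate 1 and squares for replicate 2, grey for Col-0 and coloured for ibm1-1. The 2 libraries of a genotype lie close together for phosphate starvation genes such as PS2, while replicate 2 of ibm1-1 stands low for iron genes and high for PDF1.2, and replicate 2 of Col-0 stands low for the anthocyanin genes DFR and LDOX.

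Stomatal lineage genes were lower as a group, by less than 2-fold for most. Stomata form from dividing epidermal cells under the factors SPCH, MUTE and FAMA. All 15 genes were lower in both ibm1-1 libraries than in both Col-0 libraries (31% of all genes were), and 13 passed the adjusted p, beside 7.77% of all genes (median -0.74). The fold change of 2 was passed by 3 of them. This count was 5 without replicate 1 of Col-0 or replicate 2 of ibm1-1 and 1 without either of the others. TMM, a receptor that sets the spacing of stomata, had 715 and 722 normalized counts in Col-0 and 284 and 293 in ibm1-1 (log2 fold change -1.32, SE 0.114, adjusted p = 7.5e-05). SPCH, which starts the lineage, had 224 and 293 in Col-0 and 106 and 167 in ibm1-1 (log2 fold change -0.93, SE 0.224, adjusted p = 0.0184). FAMA, which completes guard cells and is listed as FMA, had 418 and 491 in Col-0 and 185 and 267 in ibm1-1 (log2 fold change -1.01, SE 0.179, adjusted p = 0.00428), and the secreted peptide gene EPF1 had 38.8 and 46.7 in Col-0 and 15.6 and 19.6 in ibm1-1 (log2 fold change -1.28, SE 0.332, adjusted p = 0.0249). MUTE and BASL were the members above the adjusted p of 0.05, at 0.0641 and 0.0633. In bulk RNA, fewer cells of a type and less RNA per cell cannot be told apart. Of the guard cell markers, KAT1 had 406 and 479.7 normalized counts in Col-0 and 313 and 324 in ibm1-1, and the 3 markers, FAMA among them, summed to 1010 and 1166 in Col-0 and 629 and 748 in ibm1-1.

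The called genes of growth were in families of the cell wall and of water channels. In the expansins, the arabinogalactan proteins and the genes gathered as aquaporins the share of lower genes was above the 1.53% of all genes. None of 11 cell cycle genes was called, 4 were lower by the adjusted p alone, beside 7.77% of all genes, and the median was -0.24. SYP111, the syntaxin of the cell plate also known as KNOLLE, had 1415 and 1091 normalized counts in Col-0 and 861 and 756 in ibm1-1 (log2 fold change -0.63, SE 0.142, adjusted p = 0.0132). Of 23 expansins, which loosen walls, 3 were lower and none higher, with 2 lower without replicate 1 of Col-0 and 5 without replicate 2. EXPA15 had 2293 and 1779.6 in Col-0 and 845 and 885 in ibm1-1 (log2 fold change -1.23, SE 0.138, adjusted p = 0.000317). Of 27 arabinogalactan proteins of the cell wall, 5 were lower and 1 higher, but none was lower without replicate 1 of Col-0. Aquaporins of the plasma membrane and the vacuole, which are water channels, were gathered by the symbols PIP and TIP, 24 genes in all. These also include PIP5K kinase genes and TIP1 (AT5G20350), an acyltransferase gene, which are not water channels. Of the 24, 2 were lower, beside 1.53% of all genes, and both, PIP2;8 and TIP2;3, are water channels. PIP2;8 had a log2 fold change of -1.06, and of -1.14 to -0.98 with each library left out in turn. TIP2;3 had 509 and 458 in Col-0 and 129.6 and 145 in ibm1-1 (log2 fold change -1.82, SE 0.142, adjusted p = 4.14e-05). Of 26 xyloglucan hydrolases 3 were higher and 1 lower, beside 5.53% and 1.53% of all genes, and the lower count was 0 without replicate 1 of Col-0 and 2 without any 1 of the other libraries. XTH29 was the most raised of them (log2 fold change 3.00, SE 0.652, adjusted p = 0.0115).

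Markers of the organs and cell types of a seedling were read beside these groups. None of the 5 root hair markers was called (median -0.28), nor any of the 4 root tip markers, although both ibm1-1 libraries were below both Col-0 libraries for all 4 of the latter (median -0.71), with sums of 187 and 225 in Col-0 and 121 and 120 in ibm1-1. Of 5 endodermis markers, CASP5 was lower (log2 fold change -2.42, SE 0.411, adjusted p = 0.00344) and the sums were 777 and 818 in Col-0 and 523 and 456 in ibm1-1. The 5 mesophyll markers summed to 508535 and 490115 in Col-0 and 393022 and 414637 in ibm1-1. RBCS1A, a subunit of the carbon-fixing enzyme, had 304583 and 259499 normalized counts in Col-0 and 238751 and 245345 in ibm1-1 (adjusted p = 0.375), and CA1, a carbonic anhydrase, had a log2 fold change of -0.61 (adjusted p = 0.0171). The light-harvesting genes CAB2 and LHCB2.1 went against these. CAB2 was at 909 and 352 in Col-0 and 3354 and 2179.6 in ibm1-1 (adjusted p = 0.00329, and 0.191 with the robust spread). LHCB2.1 was at 436 and 276 in Col-0 and 441 and 446 in ibm1-1 (adjusted p = 0.267). In a family of 13 light-harvesting genes none was called (median 0.18). By the adjusted p alone 4 of these were higher, beside 11.5% of all genes, and none lower. The part of these cell types in the other differences was not tested. Genes encoded in the chloroplast took 1.77% to 1.86% of the counts in Col-0 and 0.998% to 1.21% in ibm1-1. Of 102 tested, 81 had both ibm1-1 libraries below both Col-0 libraries, beside 31% of all genes, and the median was -0.68. The adjusted p was passed by 51 lower genes, beside 7.77% of all genes, and by no higher gene. The fold change of 2 was also passed by 8 of the lower genes, beside 1.53% of all genes. The count was 2 without replicate 1 of Col-0, 26 without replicate 2, and 23 without replicate 1 of ibm1-1. Most chloroplast transcripts lack long poly(A) tails, and the part of RNA selection in this share was not tested.

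Genes of mitochondrial stress were higher. All 6 genes of the mitochondrial stress list were higher by the adjusted p, beside 11.5% of all genes. The fold change of 2 was also passed by 3 of them, beside 5.53% of all genes. OM66, an outer membrane protein listed as BCS1, had 86.5 and 49.4 normalized counts in Col-0 and 486 and 463 in ibm1-1 (log2 fold change 2.81, SE 0.217, adjusted p = 3.76e-05), and the alternative oxidase genes AOX1D and AOX1A had log2 fold changes of 3.07 (adjusted p = 0.00609) and 0.52 (adjusted p = 0.012). Of 8 chaperone genes of the endoplasmic reticulum, BIP3 alone was called, with 3.98 and 6.29 in Col-0 and 84.0 and 27.3 in ibm1-1, while BIP1 had 9858 and 7506 in Col-0 and 12319.5 and 10423 in ibm1-1 (adjusted p = 0.111). In the heat shock list 3 of 7 were higher, beside 5.53% of all genes. These were the small chaperones HSP17.6II, HSP18.2 and HSP21, all at low levels, with HSP21 at 1.99 and 0.898 in Col-0 and 11.4 and 13.1 in ibm1-1. Of 8 senescence genes 3 were higher, beside the same 5.53%. Among them was the factor NAP (log2 fold change 2.20, SE 0.351, adjusted p = 0.00243). None of 12 clock genes was called, but 1 was lower without replicate 2 of Col-0, without replicate 2 of ibm1-1 and with scaling by library size alone. None of 11 suberin genes was called either, but both ibm1-1 libraries were below both Col-0 libraries for 9, beside 31% of all genes. By the adjusted p alone 4 were lower, beside 7.77% of all genes (median -0.37). The lowest was FAR4, with a log2 fold change of -0.81, and of -1.14 to -0.55 with each library left out in turn. Replicate 1 of ibm1-1 was above replicate 2 for all 11 genes, with a median ratio of 1.46.

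Of 18 chromatin genes 2 were lower and none higher, beside 1.53% and 5.53% of all genes. The DNA demethylase gene ROS1, listed as DML1, had 883 and 1216 normalized counts in Col-0 and 472 and 442 in ibm1-1 (log2 fold change -1.20, SE 0.154, adjusted p = 0.00071). Without replicate 2 of Col-0 its log2 fold change was -0.95, under the fold threshold. IBM2 (AT5G11470), which is needed to read through the long methylated intron of IBM1, had 117 and 115 in Col-0 and 50.8 and 55.6 in ibm1-1 (log2 fold change -1.13, SE 0.203, adjusted p = 0.00466), and its partner EDM2 had a log2 fold change of -0.49 (adjusted p = 0.0218). The methyltransferases SUVH4 and CMT3, known to write the marks that spread without IBM1, had 272 and 279 normalized counts in Col-0 and 245 and 274 in ibm1-1, and 954 and 849.8 in Col-0 and 732 and 801 in ibm1-1 (adjusted p = 0.694 and 0.186). BNS, a gene whose silencing is a known effect of ibm1 over generations, had 144 and 130.3 normalized counts in Col-0 and 141 and 147 in ibm1-1 (adjusted p = 0.797). Among flowering genes, FT, the signal that starts flowering, was lower with 233 and 115 in Col-0 and 51.8 and 27.3 in ibm1-1 (log2 fold change -2.12, SE 0.377, adjusted p = 0.00441), and SEP3, a factor of flower identity, was higher with 25.9 and 27.8 in Col-0 and 134 and 132 in ibm1-1 (log2 fold change 2.30, SE 0.223, adjusted p = 0.00015), while the repressor FLC had 92.5 and 148 in Col-0 and 139 and 179 in ibm1-1 (adjusted p = 0.276). Of 22 seed genes only 5 passed the filter on low counts, and OLEO4, an oil body protein, was the 1 called, with 13.9 and 17.1 in Col-0 and 33.2 and 37.1 in ibm1-1. Without any 1 of the 4 libraries it was not called.

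Some genes had reads in ibm1-1 alone. Of the 1154 higher genes 14 had no count in either Col-0 library, and no lower gene was without counts in ibm1-1. AT4G18900, a WD40 repeat gene (chromosome 4 from 10356465 to 10359169), had 118 and 132 normalized counts in ibm1-1, at least 88.3-fold higher against a floor of 3 counts over both Col-0 libraries. The next was AT2G04495, an uncharacterized gene, at least 20.5-fold higher. AT2G04460, uncharacterized and near it on chromosome 2 (from 1547538 to 1548999), had 1.99 and 2.7 normalized counts in Col-0 and 1709 and 1183 in ibm1-1 (log2 fold change 9.19, SE 0.323, adjusted p = 9.8e-07). The opposite pattern was rarer. XID, a myosin motor (chromosome 2 from 14086584 to 14097285), had 73.6 and 90.7 normalized counts in Col-0 and 3.11 and 2.18 in ibm1-1 (log2 fold change -4.89, SE 0.418, adjusted p = 7.11e-05). HB40, a homeobox factor, had 65.7 and 50.3 in Col-0 and 6.22 and 3.27 in ibm1-1 (log2 fold change -3.56, SE 0.428, adjusted p = 0.000494), and RL5, a small MYB-like factor, had 83.6 and 98.8 in Col-0 and 5.18 and 14.2 in ibm1-1 (log2 fold change -3.23, SE 0.383, adjusted p = 0.000463). The glutaredoxins AT2G47880 and AT3G21460 had 162 and 263 normalized counts in Col-0 and 25.9 and 19.6 in ibm1-1, and 106 and 122 in Col-0 and 20.7 and 15.3 in ibm1-1 (log2 fold changes -3.22 and -2.66). LpxC3, a gene of lipid A synthesis with close copies, had 259.6 and 1467 normalized counts in Col-0 and 92.3 and 168 in ibm1-1, and was not called with the robust spread (adjusted p = 0.325).

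Called protein-coding genes were shorter than the others. The median genomic length was 2033 bases for the 1095 higher genes, 1936 for the 288 lower genes and 2424 for the 18749 not called, and a single exon was found in 22.9%, 25.7% and 15.2%. An intron of 1000 bases or more was in 3.20%, 2.78% and 2.22%. The called genes were also less expressed, with a median log2 CPM of 2.16 and 2.14 against 4.25, and no comparison at matched expression was made.

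Of the 1171 tested genes that the soil counts do not list, 119 were higher and 58 lower (10.2% and 4.95%), beside 5.25% and 1.32% of the 19700 listed ones. Of these genes 908 were protein-coding, and 14 rather than 177 were called when a mean CPM of at least 5 was required. MRD1, a gene named for its reduced level in a methionine-overproducing mutant, had 6.96 and 0.898 normalized counts in Col-0 and 490.5 and 552 in ibm1-1 (log2 fold change 7.06, SE 0.337, adjusted p = 4.42e-06). MT1B, a metallothionein, had 4.97 and 7.19 in Col-0 and 153 and 147 in ibm1-1 (log2 fold change 4.59, SE 0.293, adjusted p = 1.34e-05), and DIC3, a mitochondrial dicarboxylate carrier, had 1.99 and 2.7 in Col-0 and 51.8 and 69.8 in ibm1-1 (log2 fold change 4.61, SE 0.463, adjusted p = 0.000186). The defensin-like gene AT5G33355 had 3.98 and 1.8 in Col-0 and 64.3 and 84.0 in ibm1-1, and AT1G23110 had 4.97 and 0.898 in Col-0 and 109 and 87.2 in ibm1-1. After HB40, the leading lower ones were CSLB06, a cellulose synthase-like gene with 72.6 and 117 in Col-0 and 24.9 and 29.4 in ibm1-1 (log2 fold change -1.80, SE 0.307, adjusted p = 0.0035), and AT3G10185, a gibberellin-regulated gene with 138 and 92.5 in Col-0 and 36.3 and 34.9 in ibm1-1. Of 125 pseudogenes that soil lists too, 32 were higher and 10 lower (25.6% and 8.0%).

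The 20 leading genes were set beside the plants grown in soil, which were 2 weeks old, had spent 5 days on plates and 10 in soil, and had 3 replicates of each genotype. Age, substrate and read processing all differ between the experiments and cannot be told apart. The genes were chosen for their size in medium, so a smaller value in soil is in part a result of the choice. Of 18 that could be tested for a difference of the genotype effect, 9 passed an adjusted p below 0.05, beside 22.9% of 20192 genes. For PCC1 the log2 fold change was 7.27 here and 0.61 for soil, where Col-0 was already at 1805 normalized counts on average, and the difference was 6.66 (SE 0.815, adjusted p = 2.47e-05). LURP1 had 8.24 and 2.09 with a difference of 6.15 (SE 0.381, adjusted p = 2.26e-08), and PR1 had 8.94 and 4.22 with a difference of 4.72 (SE 0.489, adjusted p = 4.66e-06). These are fitted values, and that of PR1 in medium depends on the prior count because of its 3 reads in Col-0. AT1G47400 changed sides, from -3.33 in medium to 1.73 in soil, with a difference of -5.07 (SE 0.65, adjusted p = 3.88e-05). AT4G18900 had no count in Col-0 in soil either and 111 normalized counts on average in ibm1-1, and XID had -4.89 and -3.20 with a difference of -1.70 (SE 0.776, adjusted p = 0.132).

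**Figure D5:**
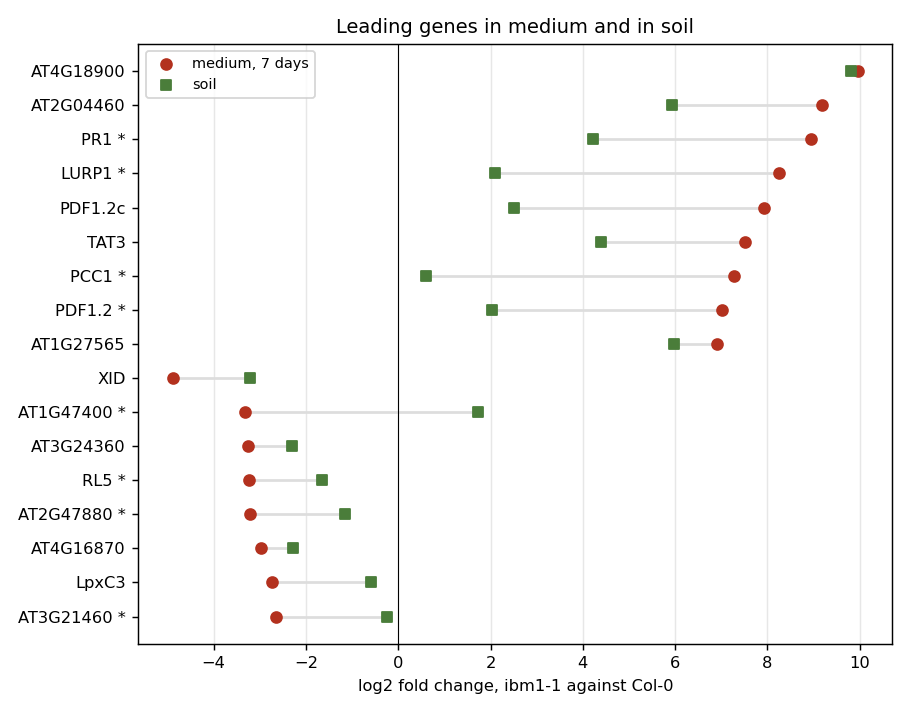
Log2 fold change of ibm1-1 against Col-0 in medium (red circles) and in soil (green squares) for the 17 leading genes with a value in both fits, where an asterisk marks an adjusted p below 0.05 for the difference. The squares of LURP1 and PCC1 lie far to the left of their circles, and AT1G47400 lies on the other side of 0 in soil, while the values of AT4G18900, PR1 and AT1G27565 depend on the prior count of the fit.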

How the data were processed

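mRNA was sequenced from full 7-day seedlings of Col-0 and ibm1-1, with 2 biological replicates of each. According to the labels and methods, the authors used Trimmomatic 0.36 for trimming, HISAT2 2.1.0 for mapping to TAIR10 and HTSeq 0.9.1 for counting reads per gene, and they deposited raw counts without normalization. The deposited soil counts were made with other tools. They entered the comparison of leading genes, the soil values beside the phosphate and iron lists, and the division into genes listed in soil or not. The 40 empty columns of the soil table were not used. The bisulfite libraries were not analysed here.

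Counts were matched to samples by column name and genotype was tested by edgeR 4.0.16 under R 4.3.3, with its filterByExpr and TMM defaults and the functions glmQLFit and glmQLFTest. Standard errors were worked back from the F statistic of this test (the size of the log2 fold change over the root of F), so they add no estimate of spread of their own. The difference between medium and soil was an interaction term over all 10 libraries in the same kind of fit. The steps were tested on simulated data. Depth was 18260809 to 21411230 counts a library, and counting intervals cover counting error only.

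The members and gene lists were chosen with earlier results of these data known, and no set test was run. Genes could be named if they were IBM1, belonged to a list, or were among the 3 largest called changes of a family. The others were the 10 most raised and 10 most reduced called genes without overlap of the genotypes and with at least 50 normalized counts in each library of the higher one, the 5 and 5 of the same kind among genes not listed in soil, the 5 called genes with the largest difference between the ibm1-1 libraries and the 5 with the smallest adjusted p in each direction. CRK5, CRK6, CRK10, CRK18, most other CRK genes of the runs, EP1, WAK1 and AT2G04495 fall outside this rule and were named after their values were seen. Positions and promoters come from the RefSeq annotation of TAIR10.1. Alternatives were DESeq2 1.42.0, its size factors, library size only, other filters, no fold-change threshold, the replicate block, each library left out in turn and a robust spread.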

Additional observations from a re-analysis of the deposited data

Results flagged for a closer look

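For 9 of the 20 leading genes the genotype effect differed between sterile medium and soil in edgeR's quasi-likelihood interaction test at an adjusted p below 0.05, all of them chosen for their size in medium. The log2 fold change in medium minus that in soil was 4.72 for PR1, 6.15 for LURP1, 6.66 for PCC1 and 4.97 for PDF1.2. It was -5.01 for AT2G30766, -5.07 for AT1G47400, -1.61 for RL5, -2.07 for AT2G47880 and -2.43 for AT3G21460. AT2G30766 had 1127 and 1331 normalized counts in Col-0 and 145 and 94.9 in ibm1-1 in medium (log2 fold change -3.35) and too few counts to be tested in soil alone. Age, substrate and read processing differ between the experiments and cannot be told apart.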

How the results depend on the processing

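The counts of higher and lower genes moved most with the filter and the fold threshold. Requiring a mean CPM of at least 5 left 518 higher and 139 lower genes of 15989 tested. It left 67 rather than 103 called genes over the lists and 87 rather than 158 of the named genes. Of the genes not listed in soil 14 rather than 177 were called. This filter removes genes of low level, where many of the called genes lie. The median log2 CPM of protein-coding genes was 2.16 for higher, 2.14 for lower and 4.25 for those not called. On the adjusted p alone, with no threshold on the fold change, the counts were 2391 higher and 1622 lower, with 165 over the lists. The genes not listed in soil gave 273 calls with no filter and 108 with DESeq2. Leaving out each library in turn, where the lone sample is assumed to vary like the other genotype, gave 947 to 1140 higher and 284 to 389 lower genes, 87 to 108 over the lists, 133 to 144 named genes and 109 to 143 genes not listed in soil, the last with 113 and 109 without replicate 1 or 2 of Col-0. The median of the root hair markers ranged from -0.56 to 0.042, above 0 without replicate 1 of Col-0. DESeq2 gave 1007 higher and 239 lower genes, and scaling by library size alone 1116 and 356, with 10 of the leading genes rather than 9 differing from soil. The robust spread, added after the data were seen, gave 1142 and 319, and 17 named genes lost their call with it. Of the 158 named called genes, 107 kept their call under all settings in which they were tested, 51 lost it under at least 1, and none changed sign. With the replicate number as a block 1219 genes were higher and 356 lower, no named call was lost, and 5 rather than 3 iron genes were lower. The same-number libraries deviated with a correlation of 0.164, and the labels give nothing but a shared number. With 2 libraries a genotype, 181 called genes differed more than 2-fold between the Col-0 replicates and 83 between those of ibm1-1.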
